A study of Sus scrofa with 20 samples.

Results

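The nuclear genes for oxidative phosphorylation subunits were examined in the uterus of 20 sows, complex by complex. Members were the rows of the deposited count table whose gene name began with NDUFA, NDUFB, NDUFC, NDUFS, NDUFV, UQCR, COX4, COX5, COX6, COX7, COX8 or ATP5, or was SDHA, SDHB, SDHC, SDHD or CYC1, with a mean of 1 CPM or more (counts scaled to a common library size) over the 20 libraries. Of 30345 rows naming a gene, 78 matched the names and 77 passed the level. The row that did not was COX8H, listed at 0 in every library, and the lowest member inside was NDUFA4L2 at a mean of 3.01 CPM. The members comprised 37 subunits of complex I, 4 of complex II, 2 of complex III, 9 of complex IV and 15 of complex V. No row was named UQCRC1, CYC1, COX4I1, COX5A, COX7B or COX8A, so complexes III and IV were covered only in part. The name rule also brought in 10 genes that encode no subunit, namely the complex I assembly factors NDUFAF1 to NDUFAF8 and the genes ATP5S and ATP5SL, and these are described apart from the 67 subunits. NDUFA4 and its paralog NDUFA4L2 were placed with complex IV, where NDUFA4 is now known to reside. All 77 members passed the filter on low counts, so none was lost before testing.

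Oxidative phosphorylation takes place in the inner mitochondrial membrane. Complexes I and II pass electrons from NADH and succinate to ubiquinone, complex III passes them on to cytochrome c, complex IV reduces oxygen, and complex V uses the proton gradient built by complexes I, III and IV to make ATP. Most subunits are encoded in the nucleus and are often regulated together, whereas a core of hydrophobic subunits is encoded by mitochondrial DNA. In the uterus, this pathway supplies secretory epithelium and contractile muscle alike.

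Crossbred Large White and Landrace sows were used, with semen of 3 Pietrain boars. FR1 sows received the sperm-rich fraction of the ejaculate, FR2 sows the rich and intermediate fractions, FR3 sows the rich, intermediate and poor fractions, and CONTROL sows no semen, with 5 sows in each of the 4 groups. All were wild type, and all uteri were collected 6 days after the onset of estrus. The study asked how the ejaculate fractions change uterine gene expression. Which sows held embryos and which boar each sow received are not given in the labels, so semen, boar and early pregnancy cannot be told apart in any comparison with CONTROL. Each library came from 1 sow, all carried the same batch label, and each library goes by its group and its column's number, since the table does not link columns to single sows.

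Library totals ran from 32.98 to 62.94 M counts, and no library was a repeat of another. Of 10 markers of uterine tissue, among them the progesterone receptor PGR and the homeobox genes HOXA10 and HOXA11, all reached 1 CPM in at least 1 library and 0 differed between inseminated and CONTROL sows at an edgeR adjusted p below 0.05 (1 higher at an unadjusted p below 0.05, 0 called by DESeq2 and 1 by limma-voom). Levels are given as CPM scaled by TMM, a correction for library composition, and levels of different genes are not compared, since transcript lengths were not used. In tissue RNA, fewer cells of a type and less RNA per cell cannot be told apart. Small subunit genes often have near-identical processed copies elsewhere in a mammalian genome, and the counting could have split reads between such copies.

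The summed level of the 67 subunits was on average lowest and most even in FR2, and on average highest and most scattered in CONTROL. The sum was 5755 to 8027 CPM in FR1, 6049 to 6751 CPM in FR2, 7843 to 11556 CPM in FR3 and 6326 to 13799 CPM in CONTROL. Its mean was 6741 ± 899 CPM in FR1, 6476 ± 261 CPM in FR2, 9023 ± 1520 CPM in FR3 and 9548 ± 3084 CPM in CONTROL (SD, n = 5 each). Every FR3 library therefore lay above every FR2 library, while CONTROL overlapped all 3 inseminated groups. The CONTROL libraries were at 11134, 6888, 9592, 6326 and 13799 CPM, so that 4 of them lay inside the inseminated range, CONTROL_2 and CONTROL_4 below all FR3 libraries, and CONTROL_5 lay above every inseminated library. Within FR3, the library FR3_3 was the highest at 11556 CPM.

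Most complexes followed the sum. Complex I summed to 1929 to 2949 CPM in FR1, 2117 to 2318 CPM in FR2, 2708 to 3962 CPM in FR3 and 2247 to 5020 CPM in CONTROL. Complex IV summed to 811 to 1216 CPM in FR1, 854 to 1024 CPM in FR2, 1262 to 1848 CPM in FR3 and 914 to 2645 CPM in CONTROL. Complex V summed to 2614 to 3376 CPM in FR1, 2672 to 2940 CPM in FR2, 3358 to 5138 CPM in FR3 and 2783 to 5396 CPM in CONTROL. In each of these complexes, FR3 and FR2 did not overlap. In complex II they did overlap, at 333.3 to 436.5 CPM in FR3 and 298.5 to 337.2 CPM in FR2, and 3 CONTROL libraries, led by CONTROL_3 at 601 CPM, lay above all 15 inseminated ones. The highest library was CONTROL_5 in complexes I, III and IV and CONTROL_1 in complex V. The 10 assembly and other factors showed no such order, with sums of 231 to 241 CPM in FR1, 216 to 249 CPM in FR2, 224 to 284 CPM in FR3 and 194 to 312 CPM in CONTROL.

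**Figure D1:**
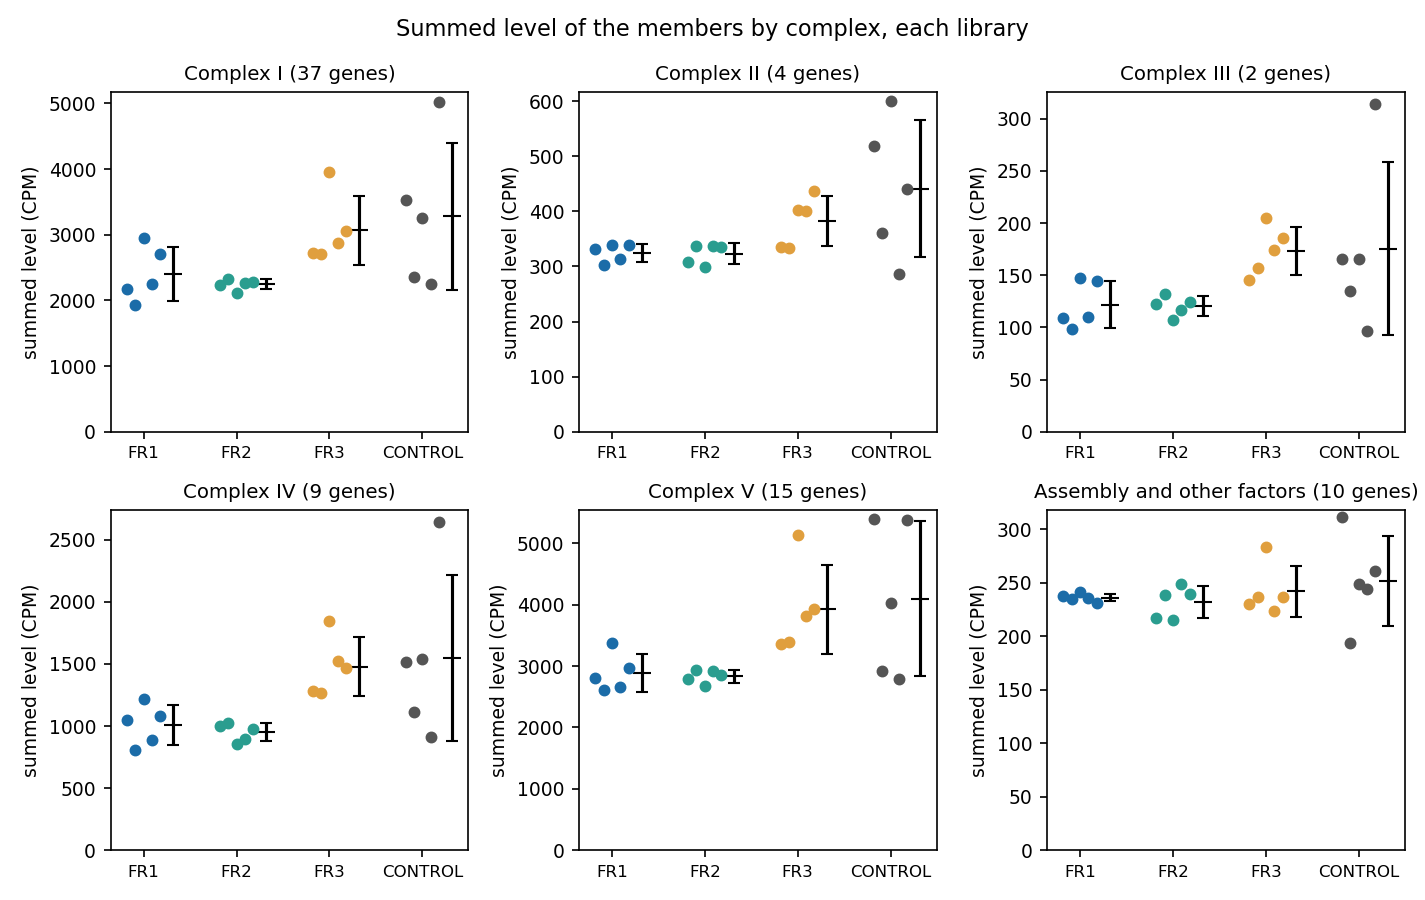
Summed TMM-scaled level of the members of each complex (CPM, linear axis from 0) for each library as a point, with the mean and SD of each group of 5 as a bar beside it. In complexes I, IV and V the FR3 points sit above all FR2 points (for complex I, 2708 CPM or more in FR3 against 2318 CPM or less in FR2), and the CONTROL points spread from the level of FR2 to the top of each panel.

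The first comparison was between all inseminated sows, as the average of FR1, FR2 and FR3, and CONTROL sows. Across complexes I, II, IV and V, 21 of the 77 members fell and 0 rose (edgeR quasi-likelihood test, adjusted p below 0.05), whereas of all 17745 genes tested 8.2% were lower and 2.87% higher by the same rule. At an unadjusted p below 0.05, 39 members were lower and 1, the assembly factor NDUFAF1, was higher, against 16.6% and 9.44% of all genes. The median log2 fold change was -0.36 over the 77 members and -0.05 over all genes tested, and 72 of the 77 values were negative. No member separated all 15 inseminated libraries from all 5 CONTROL libraries, which 0.203% of all genes did with the inseminated libraries below. Of the 21 members, 10 remained called whichever single library was left out, and 12 members were called without CONTROL_5 and 13 without CONTROL_3. Other tests called 31 members (DESeq2), 13 (limma-voom), 3 (limma-voom with a separate spread for each group) and 2 (exact rank-sum test).

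Complex I, the largest set with 37 of the 67 subunits, held 13 of the 21 falls, and complex V held 6 among 15 subunits. All 37 values of complex I were negative, at a median of -0.41. NDUFS6, an accessory zinc-binding subunit of the NADH-oxidising arm, fell the most. It was at 33.3, 26.5, 57.6, 46.4 and 53.3 CPM in FR1, at 31.5, 32.6, 37.0, 30.1 and 32.5 CPM in FR2, at 46.7, 33.8, 48.0, 36.9 and 45.3 CPM in FR3, and at 73.0, 52.0, 88.1, 63 and 113 CPM in CONTROL. In all, 4 CONTROL libraries lay above every inseminated library, and CONTROL_2 fell among the higher FR1 values. Its log2 fold change was -0.99 ± 0.17 (SE, edgeR adjusted p = 0.000864). NDUFA10, an accessory subunit with the fold of a nucleoside kinase, was at 83.5, 67.5, 94.8, 101 and 89.7 CPM in FR1, at 69.5, 68.3, 91.6, 72.9 and 95.2 CPM in FR2, at 80.5, 76.6, 130, 85.8 and 94.5 CPM in FR3, and at 190, 114, 166, 134 and 136 CPM in CONTROL. Only FR3_3 among the 15 inseminated libraries reached into the CONTROL range. NDUFA10 changed by -0.78 ± 0.14 (SE, edgeR adjusted p = 0.00138).

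Among the core subunits of complex I, which include the carriers of the flavin and the iron-sulfur clusters, 2 of 7 fell. NDUFV1, the subunit that binds NADH and the flavin cofactor, averaged 88.7 ± 14.3 CPM in inseminated sows and 136 ± 34.3 CPM in CONTROL (SD, n = 15 and 5), with 9 inseminated libraries below every CONTROL library. NDUFV1 fell by 0.63 ± 0.13 on the log2 scale (SE, edgeR adjusted p = 0.00445). NDUFV2, its iron-sulfur partner, changed by -0.43 ± 0.14 (adjusted p = 0.0481), a call that was lost in 16 of the 20 fits that left out 1 library. The largest core subunit, NDUFS1, did not pass, at -0.13 ± 0.16 (adjusted p = 0.66), and its 15 inseminated libraries lay within the 53.1 to 133 CPM of CONTROL.

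Of the 11 NDUFB subunits, accessory subunits of the membrane arm, 6 fell, with a median of -0.51. Of 13 NDUFA subunits 4 fell, with a median of -0.33, and of 2 NDUFC subunits 0. Differences between these families were not tested. The calls of NDUFB5 and NDUFB9 held in only 2 and 4 of the 20 fits that left out 1 library. NDUFB7, a disulfide-bonded subunit on the intermembrane side, was at -0.75 ± 0.15 (edgeR adjusted p = 0.00286), and NDUFB2 at -0.85 ± 0.19 (adjusted p = 0.0063). NDUFB2 was at 26.8, 21.2, 34.1, 24.1 and 37.2 CPM in FR1, at 28.9, 29.8, 18.9, 21.8 and 19.7 CPM in FR2, at 42.2, 38.4, 51.5, 37.4 and 45.9 CPM in FR3, and at 48.2, 42.6, 57.5, 33.4 and 97.6 CPM in CONTROL. FR2 lay below every CONTROL library, 2 FR1 libraries lay above CONTROL_4 alone, and FR3 lay inside the CONTROL range. NDUFA1, a small membrane subunit, was at -0.70 ± 0.17 (adjusted p = 0.0128). Its CONTROL libraries were at 36.5, 33.4, 35.1, 28.3 and 75.1 CPM, against 16.9 to 33.8 CPM in inseminated sows, and without CONTROL_5 the value was -0.38 and no longer called. NDUFA9 and NDUFC2 were nearest to no difference among the complex I subunits, both at -0.01, with standard errors of 0.20 and 0.28. NDUFA13, also known as GRIM-19, had 1 CONTROL library far from the rest, at 437 CPM in CONTROL_5 and 87.5 to 142 CPM in the other 4 CONTROL libraries, against 87.2 to 255 CPM in inseminated sows (-0.16 ± 0.29).

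Complex II, the only complex with no subunit encoded by mitochondrial DNA, had 1 of its 4 subunits called lower, and 3 of the 4 values were negative. Differences between its subunits were not tested. SDHB, the iron-sulfur subunit, was at 58.0, 52.5, 61.0, 56.4 and 66.3 CPM in FR1, at 56.0, 61.1, 47.7, 58.1 and 54.2 CPM in FR2, at 62.9, 64.2, 77.6, 70.0 and 75.9 CPM in FR3, and at 119, 91.0, 135, 64.7 and 81.8 CPM in CONTROL. Again 4 CONTROL libraries lay above all inseminated ones, and CONTROL_4 lay inside their range. SDHB fell by 0.69 ± 0.13 on the log2 scale (SE, edgeR adjusted p = 0.002). The flavoprotein SDHA, at -0.49 ± 0.16 (adjusted p = 0.0544), and the membrane anchor SDHD, at -0.43 ± 0.15 (adjusted p = 0.0697), did not pass. The other membrane anchor, SDHC, was at 0.06 ± 0.17 (adjusted p = 0.861), with 90.6 to 150 CPM in inseminated sows against 63.5 to 152 CPM in CONTROL, and its sign turned without CONTROL_2 or without CONTROL_4.

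Of the 2 measured complex III subunits, 0 passed the test by edgeR, DESeq2 or limma-voom. UQCR10 was at -0.42 ± 0.20 (edgeR adjusted p = 0.189, unadjusted p below 0.05) and UQCRB, a subunit at the ubiquinone site, at -0.25 ± 0.19 (adjusted p = 0.429). UQCRB stood at 29.0 to 67.2 CPM in inseminated sows and 34.1 to 94.0 CPM in CONTROL, and without CONTROL_5 its value was 0.01.

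In complex IV, 1 of 9 genes fell, a count near the share of all genes, of which 8.2% were lower. COX5B, a zinc-binding subunit on the matrix side, was at 115, 95.0, 157, 121 and 143 CPM in FR1, at 111, 120, 104, 98.5 and 113 CPM in FR2, at 162, 148, 236, 164 and 205 CPM in FR3, and at 233, 154, 290, 131 and 350 CPM in CONTROL. FR2 lay wholly below CONTROL, FR1 reached CONTROL_4 and CONTROL_2, and FR3 lay inside the CONTROL range. COX5B fell by 0.77 ± 0.18 on the log2 scale (SE, edgeR adjusted p = 0.00896). COX6B, COX7C, COX6A1 and NDUFA4 were lower at an unadjusted p below 0.05 and did not pass after adjustment, at -0.56 ± 0.20, -0.60 ± 0.23, -0.42 ± 0.16 and -0.39 ± 0.17. COX7C rested largely on 1 library, at 215, 177, 203 and 115 CPM in CONTROL_1 to CONTROL_4 and 476 CPM in CONTROL_5. NDUFA4L2, the paralog of NDUFA4 that hypoxia is known to induce, was low everywhere, at 1.36 to 5.49 CPM in inseminated sows and 1.27 to 4.78 CPM in CONTROL (0.12 ± 0.32, adjusted p = 0.863).

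Complex V held 6 of the falls among 15 subunits, and 14 of the 15 values were negative, at a median of -0.33. Subunit c, which forms the rotating ring of the membrane part, is encoded by ATP5G1, ATP5G2 and ATP5G3, whose mature proteins are alike in mammals. ATP5G1 was at 85.1, 64.4, 114, 76.3 and 87.9 CPM in FR1, at 72.5, 92.4, 62.1, 76.2 and 76.0 CPM in FR2, at 118, 91.5, 148, 129 and 138 CPM in FR3, and at 201, 90.9, 175, 104 and 259 CPM in CONTROL. Here 3 CONTROL libraries lay above every inseminated library, with CONTROL_2 and CONTROL_4 within their range. ATP5G1 fell by 0.83 ± 0.19 and ATP5G3 by 0.63 ± 0.15 on the log2 scale (SE, edgeR adjusted p = 0.00738 and 0.00836), whereas ATP5G2 was at 0.04 ± 0.16 (adjusted p = 0.92). The differences between these 3 fold changes were not tested.

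Of the catalytic head, the alpha subunit ATP5A1 fell, at -0.56 ± 0.17 (edgeR adjusted p = 0.0345), a call lost in 5 of the 20 fits that left out 1 library, among them those without CONTROL_1 and CONTROL_3. ATP5A1 was at 1163, 461, 799, 464 and 614 CPM in the CONTROL libraries, against 383 to 665 CPM in inseminated sows. The beta subunit ATP5B, with 1206 CPM in CONTROL_1, was at -0.28 ± 0.18 (adjusted p = 0.349), with 478 to 897 CPM in inseminated sows and 469 to 1206 CPM in CONTROL. The small membrane subunit ATP5I fell at -0.85 ± 0.21, the coupling factor subunit ATP5J at -0.61 ± 0.17 and ATP5J2 at -0.56 ± 0.17 (adjusted p = 0.012, 0.0251 and 0.0417), all belonging to the peripheral stalk or the membrane part. Of these 3 calls, ATP5I was lost without CONTROL_5 alone, ATP5J without CONTROL_3 or CONTROL_5, and ATP5J2 in 15 of the 20 fits.

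**Figure D2:**
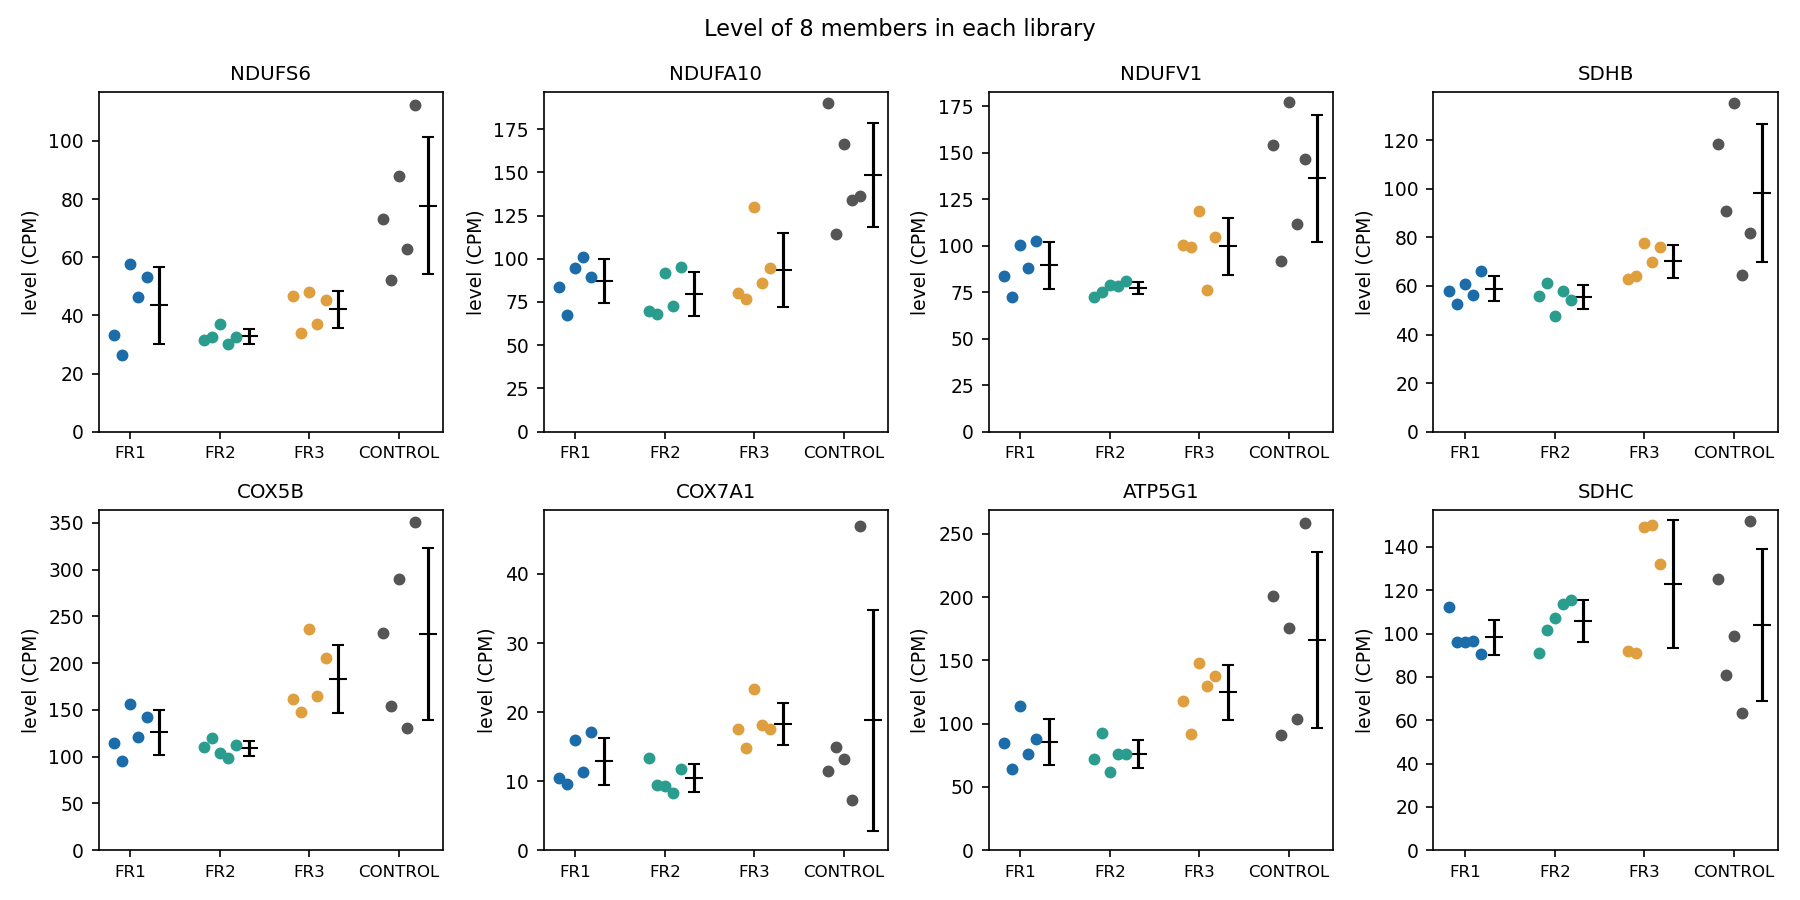
Level of 8 members (TMM-scaled CPM, linear axes from 0) in each library, with points for libraries and bars for the mean and SD of each group of 5. NDUFS6 and NDUFA10 each have 4 CONTROL libraries above all 15 inseminated ones, whereas COX7A1 has a single CONTROL library, at 47.0 CPM, above the rest and SDHC shows full overlap.

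Among the 10 assembly and other factors, 0 were called by edgeR or limma-voom and 1, NDUFAF2, by DESeq2, with 1 lower and 1 higher at an unadjusted p below 0.05. The median was -0.19. NDUFAF1, an assembly factor of the complex I membrane arm, was at 29.8 to 47.2 CPM in inseminated sows, above the 24.6, 25.7, 26.0 and 27.0 CPM of 4 CONTROL libraries, while CONTROL_1 stood at 48.9 CPM (0.39 ± 0.15, edgeR adjusted p = 0.105). Without CONTROL_1 its value was 0.62 and it was called higher (adjusted p = 0.00216). NDUFAF2, a chaperone of the same complex, was at -0.59 ± 0.23 (adjusted p = 0.109), with 1.99 to 4.15 CPM in inseminated sows and 2.58 to 6.55 CPM in CONTROL.

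Each inseminated group was then set against the same 5 CONTROL libraries, so the 3 comparisons share their CONTROL values and are given side by side. FR1 had 8 members that fell, FR2 had 19 and FR3 had 2, while 0 rose in any of them by edgeR, DESeq2 or limma-voom. Of all genes tested, 1.99% were lower and 0.609% higher in FR1 (2.6% in all), 3.98% and 1.57% in FR2 (5.55% in all), and 2.85% and 1.43% in FR3 (4.27% in all), so that the members' count in FR3 was near that of all genes. At an unadjusted p below 0.05 the members numbered 43 lower and 0 higher in FR1, 47 lower and 1 higher in FR2, and 7 lower and 1 higher in FR3. The same shares of all genes were 11.9% lower and 6.3% higher in FR1, 13.5% and 8.35% in FR2, and 12.7% and 8.63% in FR3. The median of the members was -0.50 in FR1, -0.55 in FR2 and -0.11 in FR3, against -0.03, -0.04 and -0.05 over all genes. When each fit held only the 10 libraries of the groups compared, no member was called in any of the 3 comparisons, and of all genes 0 were called in FR1, 1 in FR2 and 0 in FR3.

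In FR1 the 8 were NDUFS6, NDUFB7, NDUFA10 and NDUFB2 of complex I, SDHB, COX5B, ATP5G1 and ATP5G3, with log2 fold changes between -0.70 and -0.96. None of these 8 calls held in all 20 fits that left out 1 library, and 0 members were called without CONTROL_3, against 18 without CONTROL_4. In FR2, 12 subunits of complex I, SDHB, COX5B and 5 subunits of complex V fell, and 11 of the 19 calls held in all 20 such fits. ATP5I changed by -1.29 ± 0.27, NDUFS6 by -1.25 ± 0.22, NDUFB2 by -1.23 ± 0.24, ATP5G1 by -1.13 ± 0.24 and COX5B by -1.09 ± 0.23 (SE, edgeR adjusted p = 0.0123, 0.00615, 0.00926, 0.0134 and 0.0124). The FR2 libraries lay close together, where NDUFS6 spanned 30.1 to 37.0 CPM and COX5B 98.5 to 120 CPM. FR2 lay wholly below CONTROL in 17 of the 77 members, against 2.54% of all genes, including 11 of complex I and 4 of complex V.

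In FR3, NDUFS6 at -0.88 ± 0.22 and NDUFA10 at -0.67 ± 0.18 fell (SE, edgeR adjusted p = 0.0293 and 0.0399). SDHB was at -0.49 ± 0.16 in FR3 (adjusted p = 0.0909), COX5B at -0.34 ± 0.23 (adjusted p = 0.414) and ATP5G1 at -0.41 ± 0.24 (adjusted p = 0.342). NDUFS6 was the one member with all FR3 libraries below all CONTROL libraries, against 1.18% of all genes, and in FR1 that held for NDUFA10 and NDUFB9, against 1.36% of all genes. Without CONTROL_3 neither FR3 call remained, and without CONTROL_5 the calls were NDUFS6, NDUFA10 and SDHB lower and COX6C higher, at 0.62 (adjusted p = 0.0422). Of the complexes, only I and II kept medians below -0.15 in FR3, at -0.17 and -0.31, while complexes III, IV and V had medians of 0.02, -0.11 and -0.03.

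**Figure D3:**
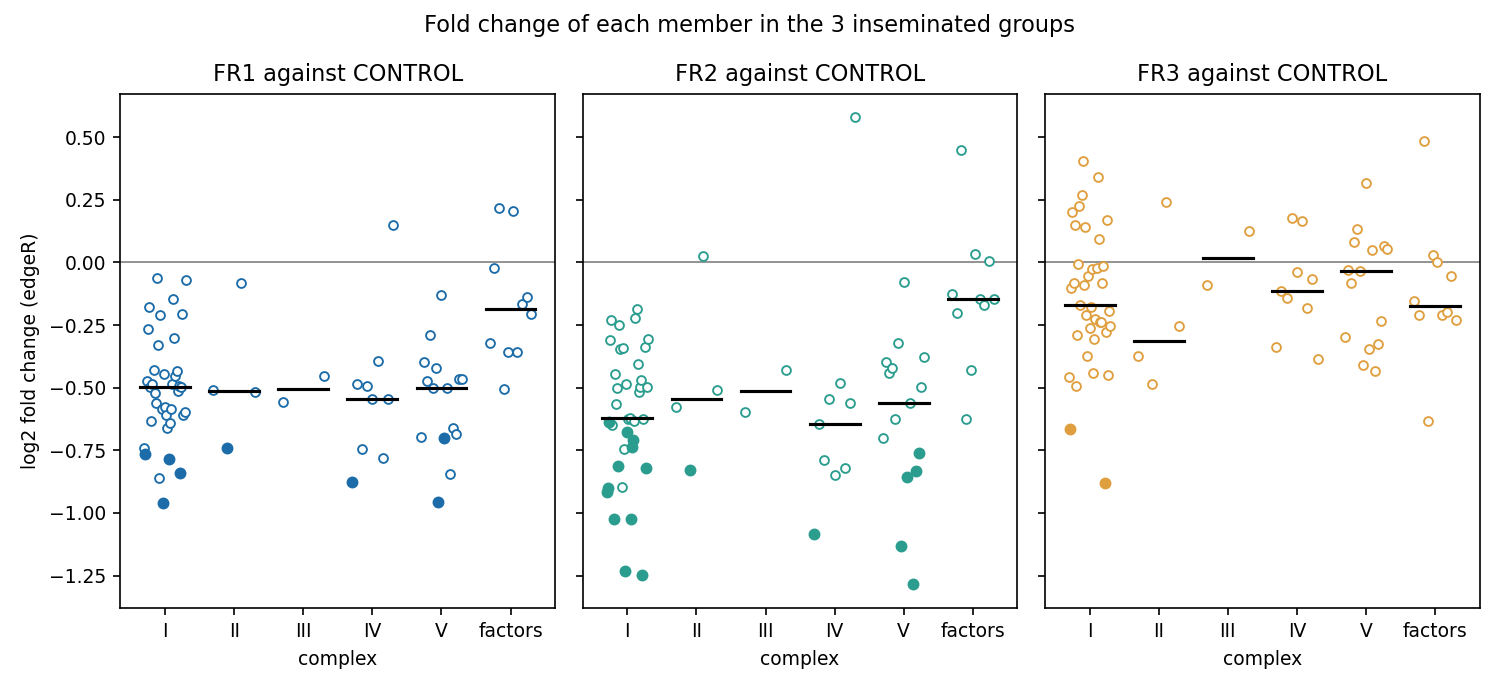
Log2 fold change (edgeR) of each of the 77 members against CONTROL in FR1, FR2 and FR3, by complex, with filled points for members past an adjusted p of 0.05, open points for the others and a line at each median. The medians of complexes I to V lie below 0 in FR1 and FR2 and nearer to 0 in FR3, and the 3 panels share the same 5 CONTROL libraries.

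The inseminated groups were also compared with each other, which asks whether adding the intermediate or the poor fraction went with a difference. No member was called in FR3 against FR2, FR3 against FR1 or FR2 against FR1 by edgeR, DESeq2 or limma-voom, and edgeR called 1, 0 and 0 genes of the 17745 tested in them (0.00564%, 0% and 0%). At an unadjusted p below 0.05, FR3 against FR2 had 42 members higher and 1 lower, against 3.21% of all genes higher and 4.15% lower. FR3 against FR1 had 23 higher and 0 lower, against 3.9% higher and 4.39% lower. FR2 against FR1 had 0 in either direction, against 0.406% of all genes higher and 0.327% lower. Most members varied together between libraries, so these are not counts of independent results. The median over the members was 0.46 in FR3 against FR2, 0.38 in FR3 against FR1 and -0.07 in FR2 against FR1, and over all genes it was 0.01 in each. Ribosomal protein genes, in lists added after other results were seen, also had medians above 0 in FR3, with 0 called in either comparison. Against FR2 the median was 0.39 over 80 cytosolic and 0.28 over 77 mitochondrial ribosomal proteins, with 0 and 5 negative values. Against FR1 these medians were 0.41 and 0.23, with 0 and 6 negative values. The summed cytosolic levels overlapped, at 98082 to 246953 CPM in FR3, 99831 to 127170 CPM in FR2 and 91650 to 127839 CPM in FR1. So did the summed mitochondrial levels, at 3600 to 5523 CPM in FR3, 3054 to 3845 CPM in FR2 and 2978 to 4612 CPM in FR1.

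FR3 exceeded FR2 without overlap in 28 of the 67 subunits, against 1.36% of all genes tested, and these were 11 of 37 in complex I, 1 of 4 in II, 1 of 2 in III, 8 of 9 in IV and 7 of 15 in V. Since the subunits varied together between libraries, the 28 are not independent results. In complex IV all 7 ordinary subunits that had a row and the tissue isoform COX7A1 were among the 28. COX6C, a small nuclear subunit, was at 286, 316, 457, 486 and 274 CPM in FR3 and at 251, 220, 211, 206 and 214 CPM in FR2. COX7A2, the widely expressed isoform of subunit 7A, was at 94.3, 93.0, 125, 113 and 109 CPM in FR3 and at 68.2, 79.7, 59.1, 67.7 and 66.1 CPM in FR2. Each FR3 library was thus above each FR2 library, by a fitted log2 difference of 0.72 ± 0.27 for COX6C and 0.65 ± 0.18 for COX7A2 (SE, edgeR adjusted p = 0.666 each). The 3 members with the smallest p in FR3 against FR2 were COX7A2, NDUFB2 and NDUFA8, the last 2 at 0.86 ± 0.24 and 0.64 ± 0.19 (adjusted p = 0.666 each). COX5B, whose levels are given above, was at 0.75 ± 0.23 (adjusted p = 0.666). NDUFA4L2 went the other way, at 1.69, 2.98, 1.36, 1.73 and 2.64 CPM in FR3 and 4.02, 4.53, 2.35, 4.54 and 4.84 CPM in FR2, a difference of -0.97 ± 0.39 (adjusted p = 0.666).

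FR3 against FR1 separated 7 subunits without overlap, against 1.01% of all genes, and these were NDUFB1, NDUFB2, NDUFV2, NDUFA4, COX6C, COX7A2 and ATP5C1. The smallest p-values in it belonged to COX7A2, ATP5O and ATP5L, at 0.56 ± 0.18, 0.52 ± 0.20 and 0.53 ± 0.21 (edgeR adjusted p = 0.586, 0.593 and 0.593). In FR2 against FR1 they belonged to NDUFS6, NDUFA3 and ATP5I, at -0.41 ± 0.21, -0.39 ± 0.21 and -0.44 ± 0.27 (adjusted p = 1 each). FR2 against FR1 separated none with FR2 below, against 0.293% of all genes. The summed level of 15 epithelial markers was higher in 4 of the 5 FR3 libraries than in every FR2 library, at 6843, 6073, 6387, 1745 and 4545 CPM in FR3 and 3278, 3880, 2208, 3598 and 3015 CPM in FR2. FR3_4 had the lowest epithelial sum of all 20 libraries and a subunit sum of 8786 CPM, above every FR2 library. The part of cell makeup in the difference between FR3 and FR2 was not tested.

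**Figure D4:**
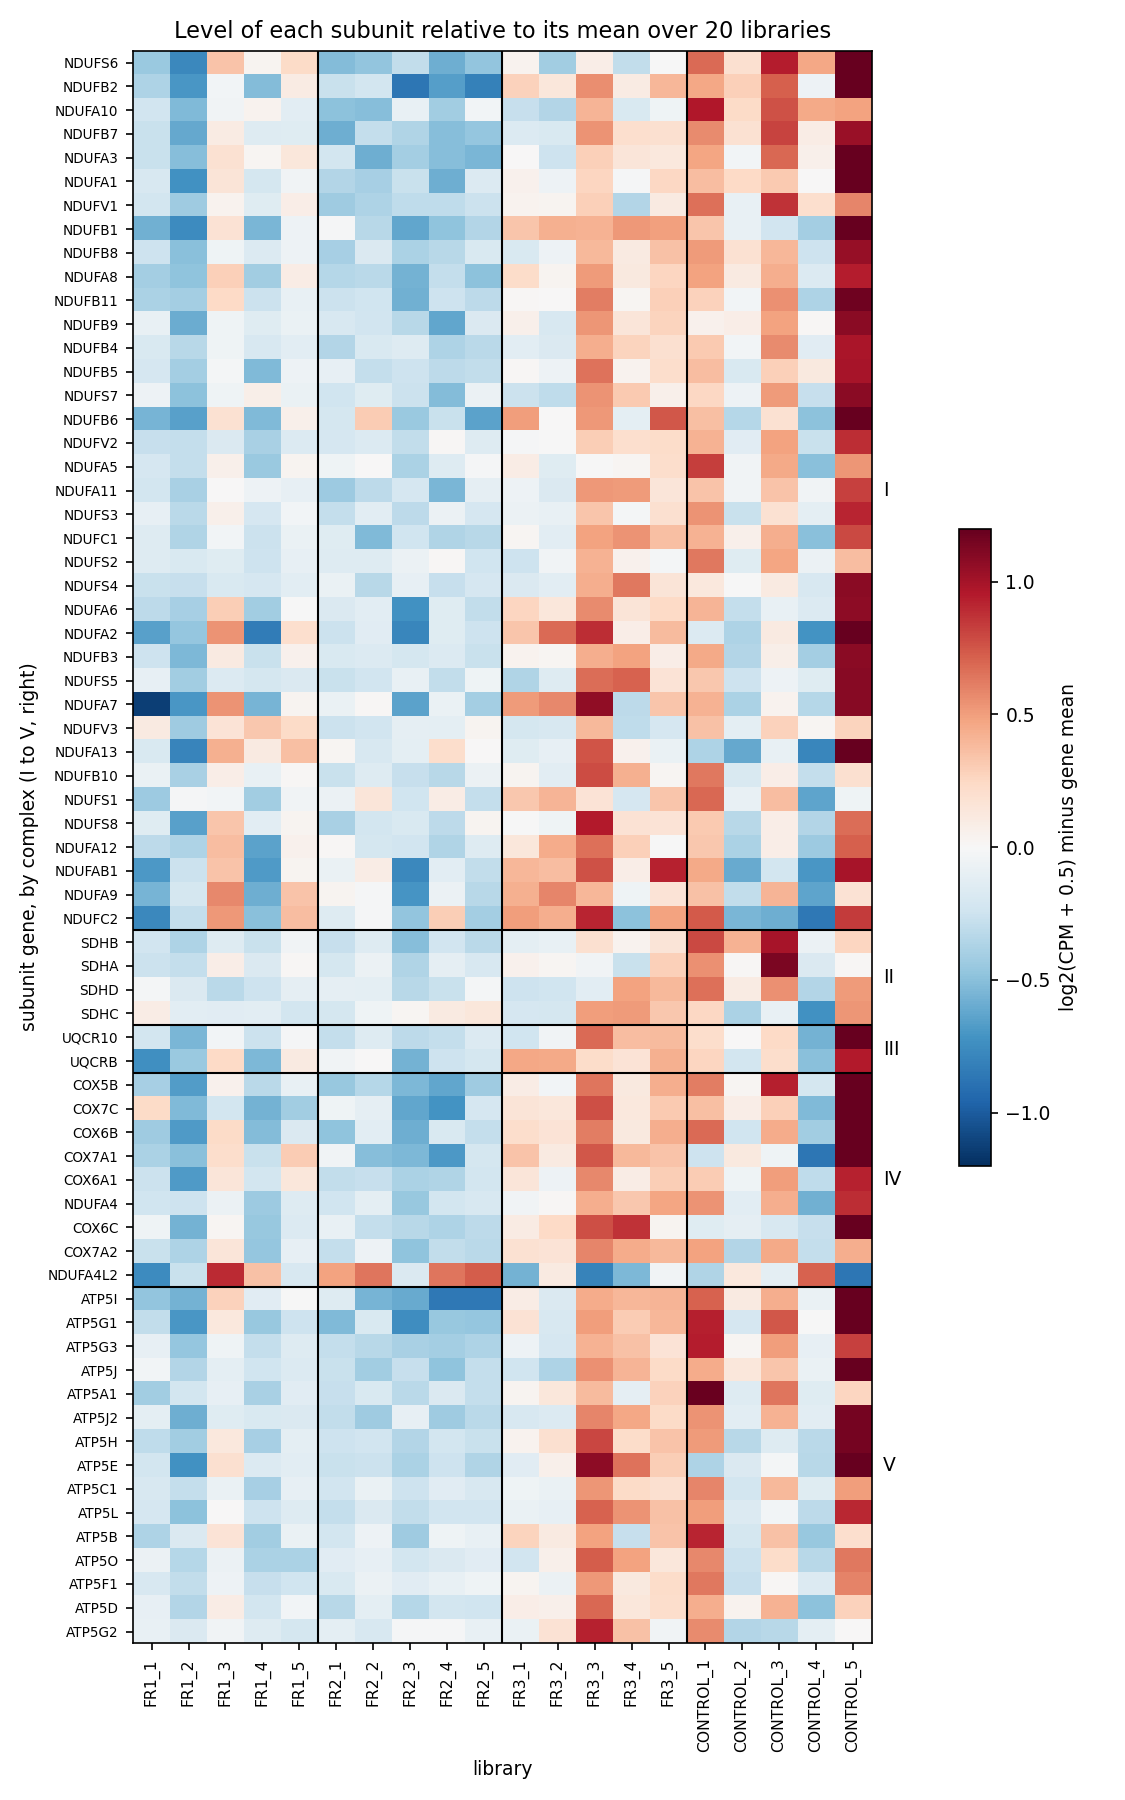
Log2 level of each of the 67 subunits in each library minus that gene's mean over the 20 libraries, by complex from top to bottom and by group from left to right, red for higher and blue for lower (values beyond the ends of the scale take the end colour). The FR2 block is mostly blue, CONTROL_5 and FR3_3 are red in most rows, and NDUFA4L2 runs against the other subunits.

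The subunits varied together between libraries. Over the 20 libraries, the level of a subunit had a median Pearson correlation of 0.87 and a median Spearman correlation of 0.83 with the mean of the other subunits, and 0.80 by Pearson without the 2 libraries farthest from the median, CONTROL_5 and FR3_3 for the mean of all 67. A correlation of 0.8 or more was found for 46 of the 67 subunits and for 1.24% of all genes tested, whose median was -0.05. These correlations are a description: all levels of a library share its RNA sample, its tissue makeup and its scaling. Counts of members called or separated in any comparison are therefore not counts of independent results. Within groups, after the group means had been subtracted, the median was 0.84 in complex I, 0.86 in complex IV and 0.85 in complex V, 0.48 in complex II and 0.26 in the factors. Over the 20 libraries without that subtraction, COX6B was closest to the others by Pearson, at 0.97, and NDUFA4L2 farthest, at -0.54. By the same measure NDUFA10 was among the looser subunits of complex I at 0.62, and SDHA and NDUFS1 were at 0.53 and 0.49. NDUFA10 was 1 of the 2 members called in all of FR1, FR2 and FR3.

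Tissue isoforms were set against their widely expressed partners within each library, a ratio in which the library scaling cancels apart from an added 0.1 CPM in each level. COX7A1, the isoform of heart and skeletal muscle, had a mean log2 ratio to COX7A2 of -2.59 ± 0.24 in inseminated sows and -2.60 ± 0.89 in CONTROL (SD, n = 15 and 5), a difference of 0.01 (2-sided exact permutation test over 15504 sets, p = 0.956, adjusted p = 0.956 over 2 ratios). The CONTROL ratios ran from -3.33 to -1.26, with CONTROL_5 the highest, and the inseminated ratios from -3.06 to -2.18. NDUFA4L2 to NDUFA4 stood at -5.81 ± 0.79 in inseminated sows and -6.27 ± 1.25 in CONTROL, a difference of 0.47 (exact permutation p = 0.334, adjusted p = 0.669). By group this ratio averaged -5.69 in FR1, -5.15 in FR2 and -6.57 in FR3.

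Other parts of the mitochondrion were read from lists chosen for the pathway, in inseminated against CONTROL sows, where 8.2% of all genes tested were lower and 2.87% higher. Of the 13 subunits encoded by mitochondrial DNA, 12 were tested, 2 fell and 0 rose, and their median was -0.30. The 2 were ND6 and ND5, both of complex I, at -1.85 ± 0.38 and -1.52 ± 0.40 (SE, edgeR adjusted p = 0.00428 and 0.0182), while ND4 was at -0.72 ± 0.25 (adjusted p = 0.0672). ND6 lies on the other strand of mitochondrial DNA from ND5, and no source used here says whether the counts keep strand. RNA was selected by its poly-A tail, so levels of mitochondrial transcripts also depend on their tails. The summed level of the 13 was 14682 to 31105 CPM in inseminated sows and 22166 to 36510 CPM in CONTROL.

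Of 42 respiratory chain assembly factors listed, only 23 had a row and were tested. Among these 23, 0 were called by edgeR or limma-voom and 1 by DESeq2, with 7 lower and 1 higher at an unadjusted p below 0.05 and a median of -0.29. Of 12 electron carriers, ubiquinone synthesis genes and the ATP synthase inhibitor, 2 fell and 0 rose at a median of -0.37. These were COQ4, of ubiquinone synthesis, at -0.52 ± 0.12 and ATPIF1, the inhibitor of ATP synthase, at -0.68 ± 0.18 (adjusted p = 0.0116 and 0.0196). Of 16 citric acid cycle genes 1 fell, DLD, the shared dihydrolipoamide dehydrogenase, at -0.44 ± 0.14 (adjusted p = 0.043), at a median of -0.19, a count near the share of all genes. Of 18 regulators of mitochondrial biogenesis, NFE2L2 fell at -1.203 ± 0.24 and PPARA rose at 1.85 ± 0.57 (adjusted p = 0.00312 and 0.044), while PPARGC1A, the coactivator known to drive respiratory genes, was at -1.29 ± 0.49 (adjusted p = 0.0963). Of 21 genes of the outer membrane, cristae and carriers, PHB, a prohibitin of the inner membrane, and SLC25A3, the phosphate carrier, fell at -0.59 ± 0.13 and -0.42 ± 0.13 (adjusted p = 0.00519 and 0.0486), again near the share of all genes. Of 9 genes of oxidant defence, TXNRD2 and PRDX5 fell at -0.56 ± 0.13 and -0.84 ± 0.26 (adjusted p = 0.00935 and 0.0429). The mitochondrial ribosomal proteins, a list added after other results were seen, had 16 of 77 lower and 0 higher at a median of -0.32, and the cytosolic ribosomal proteins, added likewise, 0 of 80 called by edgeR at a median of -0.04 (5 lower and 0 higher at an unadjusted p below 0.05, 1 called by DESeq2).

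Outside the mitochondrion, 1 of 19 glycolysis genes fell, the phosphofructokinase PFKP at -2.41 ± 0.39 (edgeR adjusted p = 0.000591), at a median of -0.08, against 8.2% of all genes lower. Of 15 genes of the hypoxia response 3 fell, SLC2A1 at -3.59 ± 0.62, ADM at -2.92 ± 0.66 and VEGFA at -1.67 ± 0.45 (adjusted p = 0.00116, 0.0072 and 0.0218), at a median of -0.05. The 15 summed to 386 to 929 CPM in inseminated sows and to 546, 1568, 5107.5, 535 and 426 CPM in CONTROL_1 to CONTROL_5. Thus only CONTROL_2 and CONTROL_3 lay above the inseminated range.

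Markers of cell types moved between the same groups. Of 15 epithelial markers 8 were lower and 0 higher in inseminated sows, and their summed level was 1745 to 6843 CPM there against 5085 to 7969 CPM in CONTROL. Of 11 fibroblast markers 3 were higher and 0 lower, with sums of 5218 to 18605 CPM in inseminated sows and 2103 to 9215 CPM in CONTROL. Of 14 immediate early and heat shock genes, which respond to handling of tissue, 9 were lower and 0 higher, with sums of 1378 to 2962 CPM in inseminated sows and 1318 to 9752 CPM in CONTROL. Smooth muscle (12 tested), endothelium (10), skeletal or cardiac muscle (7), red blood cell (4) and adipocyte (3) markers held 0 calls by edgeR, with 1 endothelial marker lower at an unadjusted p below 0.05 and called by DESeq2, and of 14 leukocyte markers 2 were lower. The red blood cell gene SLC4A1, the skeletal muscle genes MYH1, TNNC2 and TNNT3 and the fat cell gene ADIPOQ stayed below 1 CPM in every library. Other skeletal or cardiac muscle markers did not, and that list summed to 5.30 to 478 CPM in inseminated sows and 2.41 to 189 CPM in CONTROL. FR3_3 and CONTROL_5, which had the highest subunit sums of FR3 and CONTROL, also had the highest cytosolic ribosomal protein sums of these groups, at 246953 and 165526 CPM. Their red blood cell sums were the highest of the 20 libraries, at 1887 and 588 CPM, against 16.0 to 347 CPM in the other 18. The part of these differences in the subunit results was not tested, and without both libraries 13 members were called in inseminated against CONTROL sows, at a median of -0.22.

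**Figure D5:**
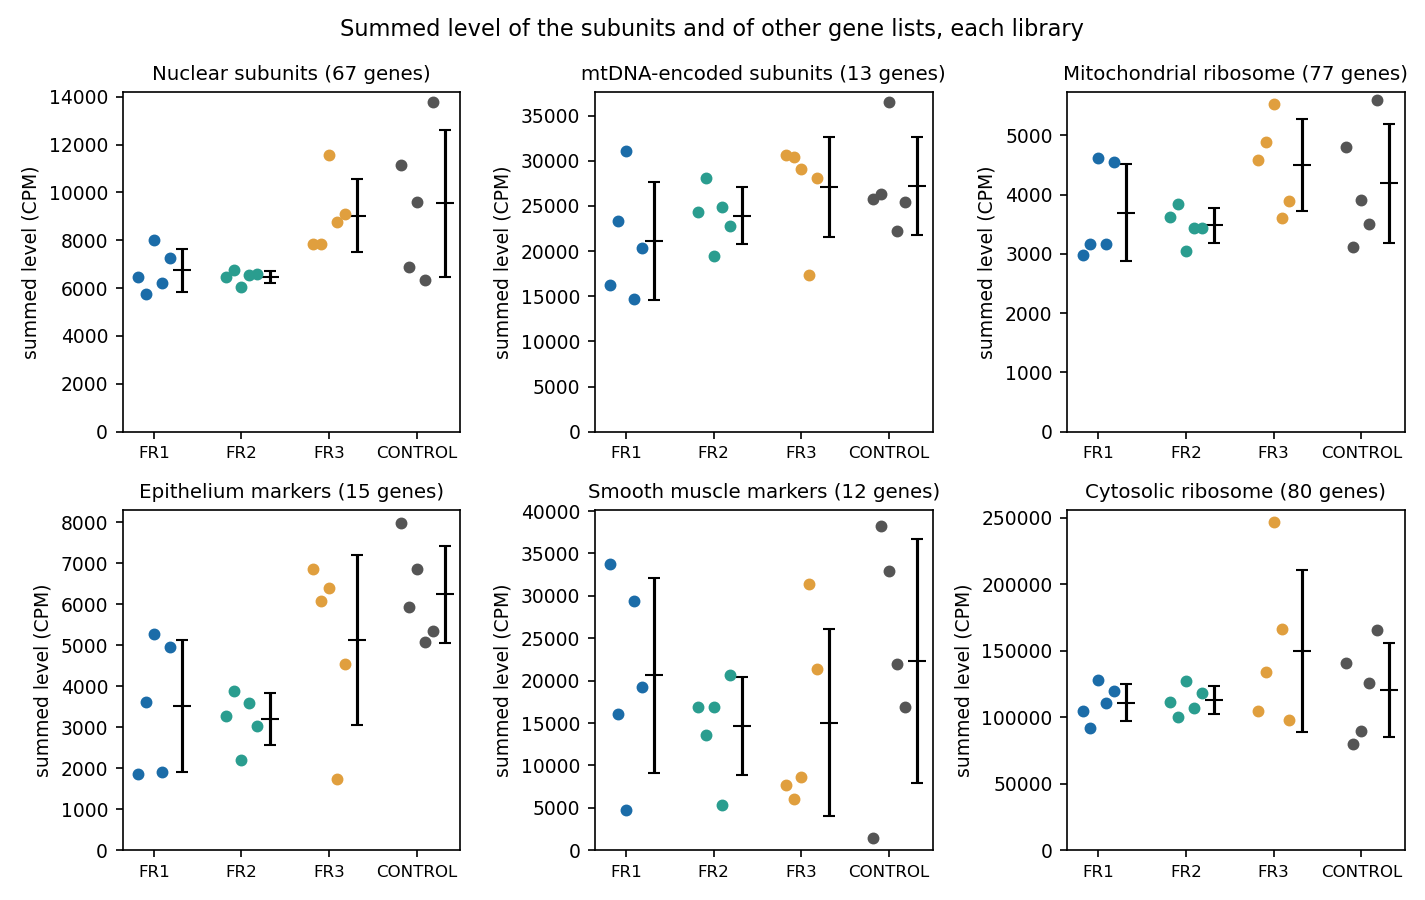
Summed level (TMM-scaled CPM, linear axes from 0) of the 67 nuclear subunits and of 5 other gene lists in each library, with the mean and SD of each group of 5. The epithelial markers are lower on average in FR1 and FR2 than in CONTROL, as the subunits are on average, and FR3_3 stands far above the rest for the cytosolic ribosome at 246953 CPM.

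A test for any difference among the 4 groups called 12 members, all of them subunits, against 4.07% of all genes tested. They were 7 of complex I, SDHB, COX5B and 3 of complex V. The lowest adjusted p-values were 0.00764 for NDUFS6, 0.0122 for NDUFB7 and 0.0135 for NDUFA10 (edgeR).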

How the data were processed

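The authors deposited 1 table of estimated counts per gene, made with STAR 2.7.9a and Salmon 1.10.1 after CASAVA, per the submitters' processing notes; genome build, annotation and strand are not given in the sources used here. Of 30369 rows, 24 naming no gene (0.0036% to 0.0133% of counts) were left out, and 30328 identifiers matched the same symbol in RefSeq Sscrofa11.1, used for names only. Estimated counts, 87.2% of them whole, were rounded. One edgeR 4.0.16 quasi-likelihood fit in R 4.3.3 held all 20 libraries (TMM factors, edgeR's filter on low counts, 17745 genes, 16 residual degrees of freedom), with Benjamini-Hochberg adjustment over all genes and a threshold of 0.05. Errors of fold changes are the fold change over the square root of F. DESeq2 1.42.0, limma 3.58.1 (voom), an exact rank-sum test, other factors, filters and thresholds, and fits without single libraries were alternatives. The fit was also run on simulated data in which all groups shared the same spread and genes varied independently. That run could not show how the fit behaves with the wider CONTROL spread or with members that vary together. Named genes were the smallest p-values per complex and comparison plus a panel of well-known subunits, with others described after their values were seen. Members and lists were chosen with earlier results of these data known.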

Additional observations from a re-analysis of the deposited data

Results flagged for a closer look

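In 9 of 128 groups of 5 libraries, 1 library lay far from the other 4, by a test that flags about 1 group in 20 by chance. FR3_3 accounted for 4 of them. Its complex I sum was 3962 CPM, while the remaining FR3 libraries held 2708 to 3053 CPM, and its sum of assembly and other factors 284 CPM against 224 to 237 CPM. COX7C was at 286 CPM in FR3_3 against 182 to 208 CPM, and ATP5SL at 109 CPM against 87.5 to 90.7 CPM. COX7C also stood apart in CONTROL_5, at 476 CPM, the rest of CONTROL being at 115 to 215 CPM. NDUFAF1 was at 48.9 CPM in CONTROL_1 against 24.6 to 27.0 CPM. SDHC was at 112 CPM in FR1_1 against 90.6 to 96.7 CPM for the rest of FR1. ATP5S was at 19.2 CPM in FR1_2 against 14.1 to 15.3 CPM, and at 15.5 CPM in FR2_3 against 18.2 to 19.0 CPM.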

How the results depend on the processing

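No paired analysis was possible because the labels number the sows from 1 to 20 and give no number that groups share. In inseminated against CONTROL sows, the 21 members called became 10 at an adjusted p below 0.01, 13 by limma-voom, 3 by limma-voom with a spread per group, 2 by the exact rank-sum test, 36 without CONTROL_2, CONTROL_3 and CONTROL_4, and 13 without CONTROL_5 and FR3_3, an alternative chosen after seeing the data; leaving out 1 library gave 12 (without CONTROL_5) to 31 (without CONTROL_4). In FR1 the 8 became 0 at 0.01, 18 at 0.1, 4 with upper quartile factors, 5 with no filter on low counts, 23 by DESeq2, 2 by limma-voom and 0 with a spread per group, and 0 to 18 without 1 library. In FR2 the 19 became 5 at 0.01, 30 at 0.1, 37 by DESeq2 and 11 with a spread per group, and 11 to 31 without 1 library. In FR3 the 2 became 0 at 0.01, 1 with no filter, 0 by limma-voom with or without a spread per group, and 0 to 4 without 1 library. With only the groups compared, FR1, FR2 and FR3 each had 0. The test of any difference had 12, 32 by DESeq2 and 3 to 19 without 1 library. The causes were not tested. Calls between inseminated groups were 0 in every alternative run.

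Of single members, SDHC in inseminated sows turned to -0.02 without CONTROL_2, -0.0591 without CONTROL_4 and -0.33 without CONTROL_2, CONTROL_3 and CONTROL_4, with 0.25 without CONTROL_5 the highest. UQCRB turned to 0.00516 without CONTROL_5 and 0.0161 without CONTROL_5 and FR3_3, with -0.39 without CONTROL_4 the lowest. In FR3, UQCRB ran from -0.0170 without CONTROL_4 to 0.37 without CONTROL_5, and UQCR10 from -0.25 without CONTROL_4 to 0.26 without CONTROL_5, at 0.01 without FR3_1, 0.14 without CONTROL_5 and FR3_3 and 0.000125 with a spread per group. The COX7A1 to COX7A2 difference ran from -0.17 without CONTROL_1 to 0.35 without CONTROL_5. In all, 2418 values for single members kept direction and side of the threshold, 169 lost the call, 58 gained it and 10 turned.

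The 5 CONTROL libraries of wide spread limit every comparison with CONTROL, and p-values rest on a spread shared with the tighter inseminated groups. Low members such as NDUFA4L2 and NDUFAF2 rest on few counts per library.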
